A study of Solanum lycopersicum with 12 samples.

Results

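GOBLET (Solyc07g062840.3), NAM2 (Solyc03g115850.3) and NAM3 (Solyc06g069710.3) are tomato NAC-domain genes of the NAM type whose transcripts carry a site for the microRNA miR164. They were chosen by identifier, as 3 of the 34688 gene loci of the deposited small-RNA count table. Small RNAs of 18 to 26 nt were sequenced from Solanum lycopersicum callus and cotyledon in 12 libraries, 3 per group. The callus groups came from cotyledon explants kept on SIM medium for 12, 14 or 16 days. The cotyledons, the seed leaves, were excised 6 days after sowing and make up the day 0 group. The labels gave no cultivar, genotype or batch or separate cultures for the replicates. The p-values therefore measure the spread between these libraries alone, which may be technical.

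GOBLET acts at the boundaries between organs and the meristem in tomato, where it is needed to keep the shoot meristem and to set leaflet boundaries, and NAM2 acts at boundaries in the tomato flower. In plants, miR164 pairs with transcripts of such NAC genes and guides their cleavage, which restricts where the proteins are made. Reads of 21 nt are typical of plant microRNAs and of secondary small interfering RNAs made from a transcript, and reads of 24 nt are typical of the small interfering RNAs that guide DNA methylation. Each value counts the small RNAs assigned to a gene and says nothing direct of its mRNA, and for this reason the tissue labels could not be checked against marker genes. In such bulk libraries, fewer cells of a type and less RNA per cell cannot be told apart. The count table did not separate sense from antisense reads, and the sources used here do not say how reads matching several loci were counted, so that reads shared by these related genes cannot be told apart.

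The libraries had 456744 to 698312 gene reads each, and these overlapped between the tissues. Library totals did not overlap, with 2769024 to 3723456 reads in cotyledon and 3817383 to 4799134 in callus. Gene reads made up 14.7% to 18.4% of the total in cotyledon and 11.3% to 14.9% in callus. Total depth thus cannot be told apart from tissue. Of the 34688 loci, 6729 had enough reads to be tested. GOBLET was among them, while NAM2 and NAM3 were not. GOBLET passed the count filter through its callus reads alone, as the cotyledon libraries had 1, 3 and 0 reads. Over the 12 libraries GOBLET had 164 reads, more than 89.5% of all loci. NAM2 had 3 reads and NAM3 had 5, and 15.6% and 22.2% of all loci had fewer than these.

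Small RNAs on GOBLET were present in every callus library and nearly missing in cotyledon. The cotyledon libraries had 1, 3 and 0 reads. In callus, replicates 1, 2 and 3 had 5, 10 and 28 reads at day 12. They had 25, 29 and 16 reads at day 14, and 4, 26 and 17 reads at day 16. The lowest callus library, replicate 1 of day 16, thus had 1 read more than the highest cotyledon library, and callus libraries differed from each other by up to 25 reads.

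Scaled by the gene reads of each library (CPM, reads per 1000000 gene reads), GOBLET was at 1.82, 5.32 and 0 CPM in cotyledon. Callus libraries of day 12 were at 9.44, 15.2 and 47.7 CPM, those of day 14 at 51.9, 41.5 and 31.4 CPM, and those of day 16 at 7.38, 49.97 and 35.4 CPM. On this scale no callus library overlapped the cotyledon libraries. The means were 2.38 ± 2.71, 24.1 ± 20.6, 41.6 ± 10.2 and 30.9 ± 21.6 CPM at days 0, 12, 14 and 16 (SD, n = 3 each). Day 14 had the highest mean and the least spread for its size, and neighbouring callus days overlapped. Relative to the library totals, which include reads outside genes, replicate 1 of callus day 16 was at 0.896 reads per 1000000 library reads and replicate 2 of cotyledon at 0.980, so that on that scale the groups overlapped.

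**Figure D1:**
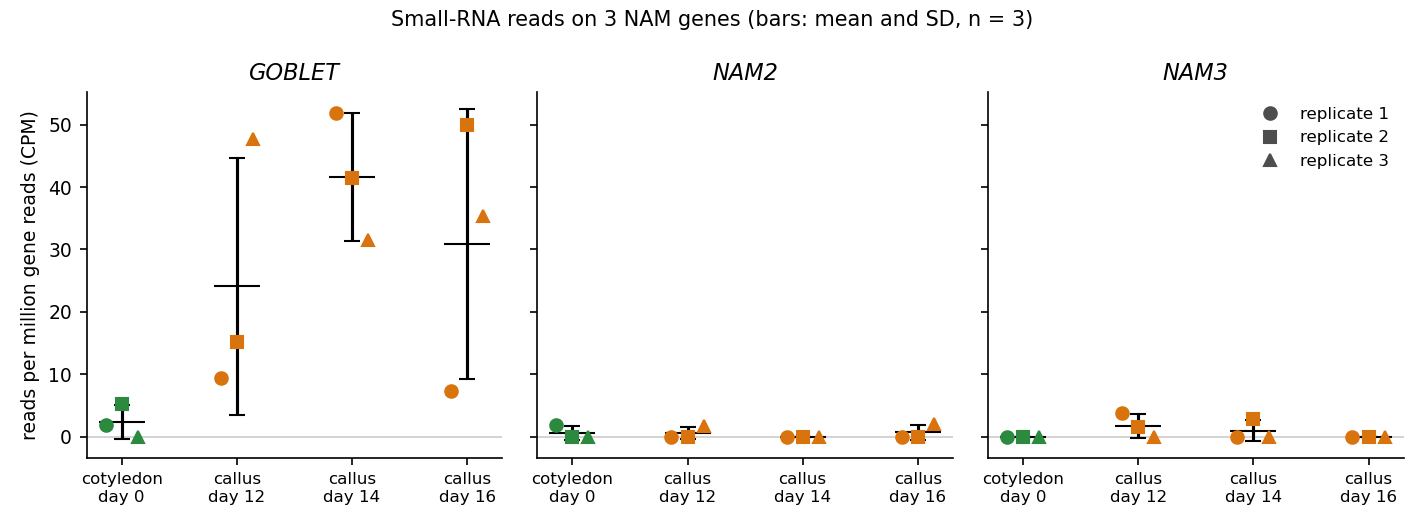
Reads on GOBLET, NAM2 and NAM3 per 1000000 gene reads (CPM, vertical axis) in each library, by group (horizontal axis); symbols mark the replicate number, and the bars give the mean and SD of 3 libraries. GOBLET is at 0 to 5.32 CPM in cotyledon and at 7.38 to 51.9 CPM in callus, while NAM2 and NAM3 stay at or below 3.78 CPM in every library.

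GOBLET was called higher at each callus time by the quasi-likelihood test of edgeR, with Benjamini-Hochberg adjustment over the 6729 loci. It was among those loci through its callus reads alone, so that these p-values are not independent support for a rise. The same holds for the other edgeR comparisons of GOBLET between callus and cotyledon. For day 12 the log2 change against cotyledon was 3.09 (SE 0.91, adjusted p = 0.0145). For day 14 it was 3.88 (SE 0.87, adjusted p = 0.00257), and for day 16 it was 3.36 (SE 0.90, adjusted p = 0.00862). Of all loci tested, 14.4% rose at day 12, 14.0% at day 14 and 13.4% at day 16. The 3 comparisons share the same cotyledon libraries. With only the compared groups in the fit, GOBLET failed the count filter at days 12 and 16 and had no test there.

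The rise at day 12 rested on few reads. Without replicate 3 of callus day 12, which held 28 of the 43 day 12 reads, the log2 change was 1.99 (edgeR adjusted p = 0.112). Without replicate 1 of cotyledon the log2 change at day 12 was 2.90 (SE 1.06, adjusted p = 0.0547), and without replicate 3 it was 2.64 (SE 0.95, adjusted p = 0.0509). Replicate 2 of cotyledon held 3 of the 4 cotyledon reads, and without it the log2 changes were 4.37, 5.14 and 4.60 at days 12, 14 and 16. At days 14 and 16 the call held without any single library of the groups compared, with adjusted p of at most 0.0149 and 0.0392.

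**Figure D2:**
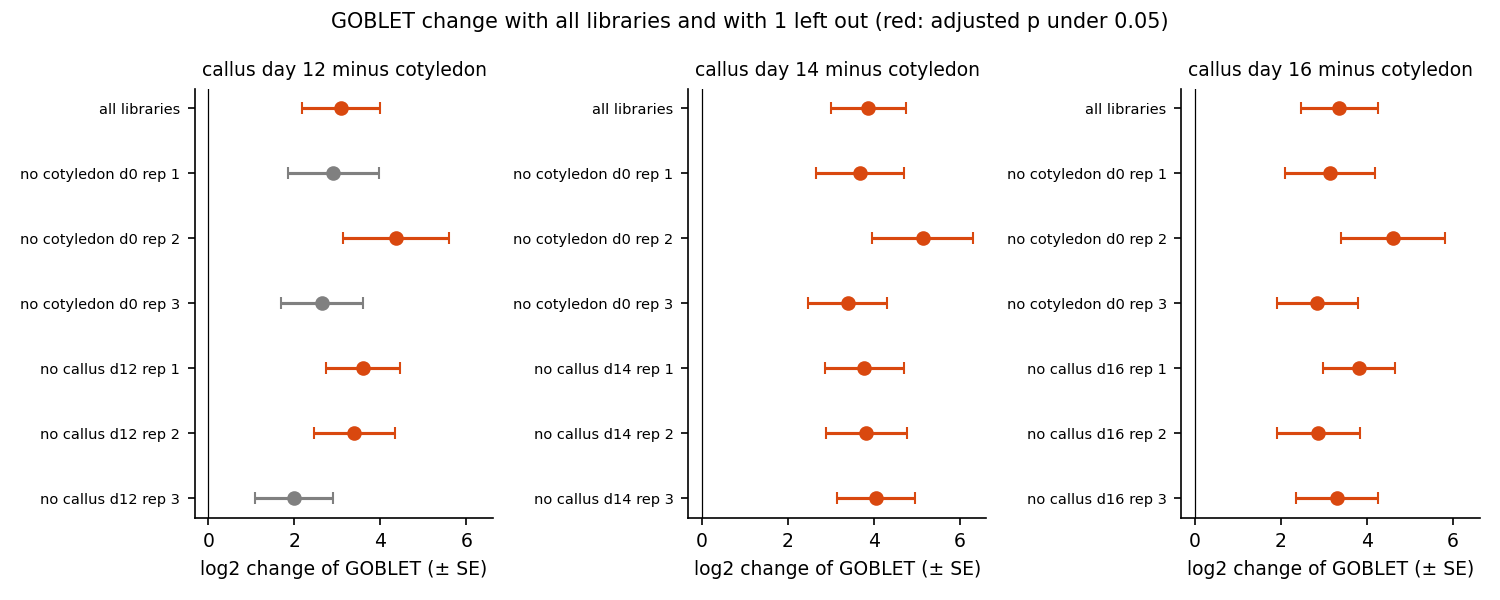
Log2 change of GOBLET (horizontal axis, with SE) for callus at day 12, 14 or 16 against cotyledon in the edgeR fit, with all libraries (top row) and without 1 library of the groups compared (other rows). Red marks an adjusted p under 0.05; at day 12 the call is lost without cotyledon replicate 1 (change 2.90), cotyledon replicate 3 (2.64) or callus replicate 3 (1.99).

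Over the 9 callus libraries GOBLET averaged 32.2 ± 17.5 CPM (SD, n = 9), against 2.38 ± 2.71 CPM in the 3 cotyledon libraries (SD, n = 3). The exact permutation test over libraries (two-sided) gave p = 0.0136, where the smallest p that the 220 arrangements allow is 0.00455. In edgeR the mean of the callus groups lay above cotyledon by a log2 change of 3.44 (SE 0.81, adjusted p = 0.00242). In this comparison 17.6% of the loci tested rose and 118 loci, or 1.75%, had a larger log2 change, against a median over all loci of 0.10. The 9 callus libraries lay above the 3 cotyledon libraries in CPM, as they did for GOBLET, at 12.9% of the loci tested. Summed over libraries, 160 of 5005356 callus gene reads and 4 of 1569045 cotyledon gene reads lay on GOBLET, a ratio of 12.5 with a 95% exact counting interval of 4.80 to 46.6. The counts do not separate PCR copies from separate molecules, so that intervals and floors cover counting error only. The edgeR log2 change was 4.70 without replicate 2 of cotyledon, which held 3 of the 4 cotyledon reads. It was 3.24 without replicate 1 of cotyledon and 2.96 without replicate 3 of cotyledon.

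**Figure D3:**
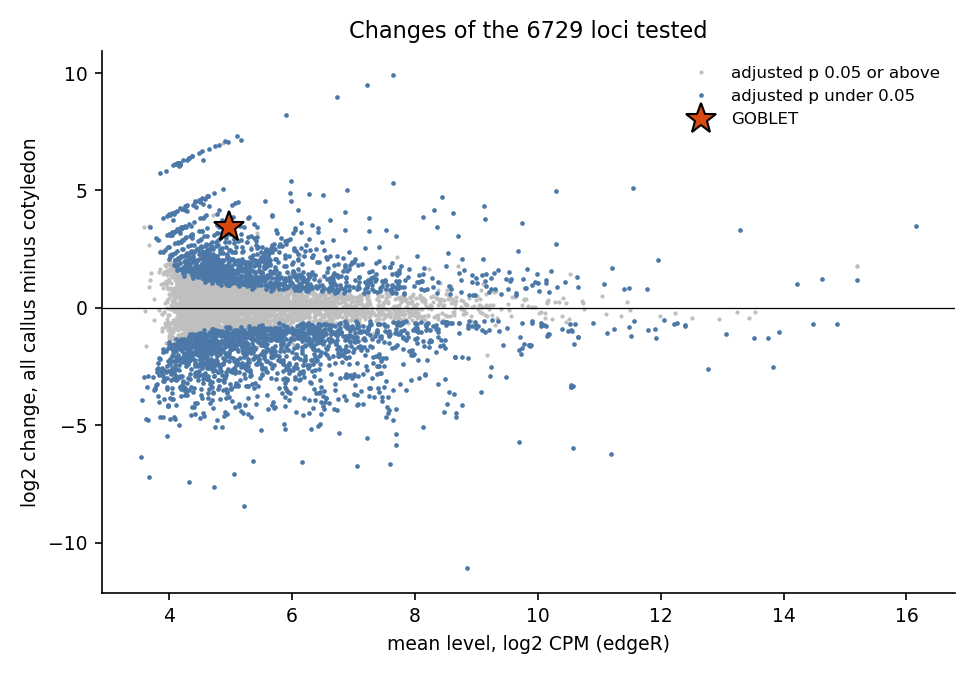
Log2 change of all callus against cotyledon (vertical axis) by mean level in log2 CPM (horizontal axis) for the 6729 loci tested in edgeR, with loci at an adjusted p under 0.05 in blue and GOBLET as a star. GOBLET, at a log2 change of 3.44, lies among the upper loci at a low mean level.

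Among the callus days GOBLET did not pass the test. The joint edgeR test of days 12, 14 and 16 gave an unadjusted p of 0.440 and an adjusted p of 0.849. Without replicate 3 of day 12 the unadjusted p was 0.0311 and the adjusted p 0.583. With all libraries no locus passed the joint test (0% of 6729), with 547 loci at an unadjusted p under 0.05. DESeq2 called 26 of 4057 loci and edgeR without a filter 94 of 32258, and GOBLET was in neither set. A change among these days was therefore not detectable for GOBLET at this depth and spread between libraries.

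Most small RNAs on GOBLET were 21 nt long. In callus 113 of 160 reads were 21 nt, or 70.6% (95% exact binomial interval 62.9% to 77.6%), and in cotyledon 3 of 4 were. Among all gene reads, 28.1% to 51.6% were 21 nt in the 12 libraries. The other callus reads were spread over the remaining lengths, with 13 reads of 24 nt (8.12%), 11 of 22 nt (6.88%), 8 of 19 nt and 7 of 23 nt, and at most 3 at each of 18, 20, 25 and 26 nt. The 24-nt reads were concentrated, as 7 of the 13 lay in replicate 3 of day 12, and cotyledon had 0. The 23-nt reads were too, with 6 of 7 in replicate 2 of day 14.

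Reads of 21 nt alone gave the same direction as all lengths together. Cotyledon had 0, 3 and 0 such reads. Day 12 callus had 3, 4 and 15, day 14 callus 18, 22 and 10, and day 16 callus 3, 24 and 14. By raw count the lowest callus libraries, at 3 reads, equalled the highest cotyledon library. In edgeR on the 989 loci with enough 21-nt reads, the log2 change of all callus against cotyledon was 3.41 (SE 0.93, adjusted p = 0.00538), and 27.3% of these loci rose. At day 12 the change of 2.56 did not pass (adjusted p = 0.0646), while the change passed at day 14 with 4.05 (adjusted p = 0.00326) and at day 16 with 3.61 (adjusted p = 0.00822). All 21-nt cotyledon reads lay in replicate 2. Without that library, the callus mean of 22.96 CPM of 21-nt reads was 7.70 times a floor of 3 counts over the other cotyledon libraries (2.98 CPM). The library was left out because it held these reads, so the 0 was set by that choice. The lowest callus libraries were at 5.54, 5.66 and 6.08 CPM of 21-nt reads, against 5.32 CPM in the library left out. GOBLET did not pass the count filter at any other single length.

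**Figure D4:**
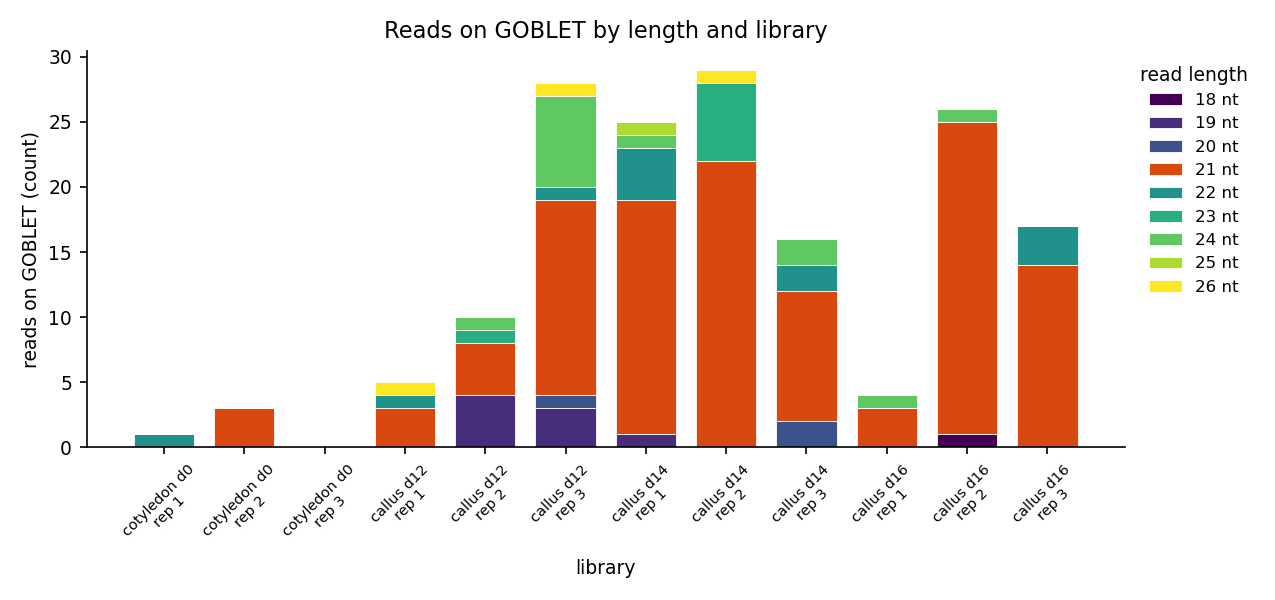
Reads on GOBLET (vertical axis, counts) in each of the 12 libraries (horizontal axis), stacked by read length, with 21 nt in orange. Reads of 21 nt make up the largest part of all callus bars except replicate 2 of day 12, where 19 and 21 nt have 4 reads each, and 7 reads of 24 nt stand out in replicate 3 of day 12.

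In the authors' deposited table of DESeq2 comparisons, made for each length apart, GOBLET was the 1 member of the 3 with values. For 21-nt reads the authors' deposited table gave log2 changes against cotyledon of 2.88, 4.21 and 3.87 for the 3 callus times in order (adjusted p = 0.250, 0.00556 and 0.0346). For 24-nt reads the authors' deposited table gave log2 changes of 4.12, 2.53 and 1.90 with unadjusted p of 0.101, 0.479 and 0.638 and no adjusted p. Between callus days, the authors' deposited table gave a 21-nt change of 1.44 for day 14 against day 12 (unadjusted p = 0.0585, adjusted p = 1.00).

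NAM2 and NAM3 carried hardly any small RNAs in either tissue. NAM2 had 2 reads in the 9 callus libraries, 1 of 23 nt in replicate 3 of day 12 and 1 of 21 nt in replicate 3 of day 16, against 1 read of 21 nt in replicate 1 of cotyledon. NAM3 had 5 reads in callus, namely 2 of 19 nt in replicate 1 and 1 of 24 nt in replicate 2 of day 12 and 2 of 21 nt in replicate 2 of day 14, against 0 in cotyledon. A count of 0 among the cotyledon gene reads allows up to 1.91 CPM, and the callus mean of NAM3 was 0.907 CPM, below that limit. The mean of NAM2 was 0.421 CPM in callus and 0.607 CPM in cotyledon. Exact permutation tests over the libraries (two-sided) gave p = 0.836 for NAM2 and p = 0.509 for NAM3. In edgeR without a filter, over 32258 loci, the adjusted p for NAM2 was 0.844 in all callus against cotyledon. For NAM3 the same fit gave a log2 change of 1.85 with an SE of 3133, which is no usable estimate. Differences of NAM2 and NAM3 between callus and cotyledon were not detectable at this depth.

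A list of 11 other loci of shoot meristem and organ boundary development, held by identifier, had 0 to 131 reads per locus. All 11 were in the table and 10 had a read, as had 32258 of the 34688 loci of the table. Of the list, 1 locus passed the count filter, as did 6729 of the 34688 loci. It was Solyc07g062680.3, with 91 reads in callus and 40 in cotyledon, 66 of the 131 being 21 nt. Its log2 change of all callus against cotyledon was -0.58 (SE 0.47, edgeR adjusted p = 0.343), and those at days 12, 14 and 16 were -0.81, -0.48 and -0.44 (adjusted p = 0.304, 0.567 and 0.595). Thus 0 of 1 tested loci of the list passed the test, where 1182 (17.6%) of the 6729 loci tested rose and 1546 fell, and nothing can be read from a single locus. The next by reads was Solyc06g074910.3, with 63 reads in callus and 19 in cotyledon, of which 47 of 82 were 24 nt. The other 9 had 0 to 34 reads in all.

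The 2 loci whose levels followed GOBLET most closely over the 12 libraries were not mainly of 21 nt, as is usual for loci here. Among 5095 loci with at least 4 reads in every callus library, the median 21-nt share was 9.43% to 12.5% by callus library. Among 6674 tested loci with a mean of at least 10 CPM, Solyc04g052940.1 had the highest Pearson correlation of log2(CPM + 1) with GOBLET (r = 0.92, Spearman's rho = 0.94), and Solyc11g007770.2 the next (r = 0.92, rho = 0.75). Solyc04g052940.1 averaged 25.5 CPM in callus and 0 in cotyledon, with 4.76% of its 126 reads at 21 nt. Solyc11g007770.2 averaged 23.8 CPM in callus and 2.99 in cotyledon, with 23.97% of its 121 reads at 21 nt. These correlations are a description over 4 groups that share libraries and depth, and 194 loci had r over 0.8.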

How the data were processed

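Small-RNA libraries of callus and cotyledon were compared, 3 per group, grouped by their titles. The authors deposited raw counts per gene locus, 1 column for each of 9 read lengths in each library, per the file headers. They also deposited TPM values by length and strand, and log2 fold changes with p-values from their own comparisons. The submitters' processing notes name fastp, Bowtie and DESeq2. Versions, genome build and counting rules are not given in the sources used here. Unused columns of other samples numbered 0.

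From these counts, reads were summed over 18 to 26 nt, filtered with filterByExpr (minimum count 10, minimum total 15) and tested over all 12 libraries with edgeR 4.0.16 (quasi-likelihood F test, TMM scaling, Benjamini-Hochberg adjustment, threshold 0.05). SE was the log2 change over the square root of F. DESeq2 1.42.0 was an alternative. The spread of the tested loci was a biological coefficient of variation of 0.333, and 0.503 for GOBLET. CPM was relative to all gene reads of a library. Library totals of 2769024 to 4799134 reads were recovered from the deposited TPM, where 216 of 216 values gave whole reads (tolerance 0.05 reads). The edgeR script was tested on simulated data. Each library was treated as 1 sample. The chi-square per degree of freedom between replicates was 3.61 to 12.4, above sampling noise. Replicates were thus not copies of the same library, but this cannot show that they came from separate cultures.

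Named loci were the members, loci of the list of 11, and the 2 loci most correlated with GOBLET. Members, lists and tests were chosen with earlier results of these data known. Of the 3 member identifiers, 0 matched the gene table of the reference. Names follow the rule that chose the genes, and no sequence is shown. Alternatives were another scaling, library totals, no filter, DESeq2, fewer groups in the fit, 21-nt or 20- to 22-nt reads, a replicate block and leaving out each library.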

Additional observations from a re-analysis of the deposited data

How the results depend on the processing

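GOBLET's rise over all callus (log2 2.80 to 4.70) and at day 14 (3.40 to 5.14) held under all alternatives run. At day 16 (2.85 to 4.60) it held under all alternatives that gave a value. Its 21-nt rise over all callus ranged from 2.92 to 6.58 without 1 library (the highest fitted against 0 cotyledon reads). Over all callus the lowest value, 2.80, came without 4 libraries set apart by the second principal component (replicate 3 of day 12, 1 of day 14, 3 of day 16 and 1 of cotyledon), an alternative chosen after seeing the data. At day 12 the call was lost with 21-nt reads (log2 2.56), 20- to 22-nt reads (2.15), without the 3 callus libraries of that set (2.03) and without all 4 (1.81), with edgeR adjusted p of 0.0646, 0.0858, 0.103 and 0.218; without 1 library the change was 1.99 to 4.37. The cause was not tested. With only the compared groups fitted, GOBLET failed the count filter at days 12 and 16, giving no value. Means differed by 27.4 to 32.9 CPM for GOBLET and 0.548 to 1.02 CPM for NAM3 without 1 library, and by -0.491 to 0.421 CPM for NAM2, which reversed to 0.421 without replicate 1 of cotyledon, where the 1 cotyledon read lay. The adjusted p among callus days was 0.583 to 0.963 without 1 library. Loci called without 1 library numbered 1800 to 2025, 1735 to 1845 and 1757 to 1916 at days 12, 14 and 16 and 2262 to 2983 over all callus. With TMM scaling 943 rose and 1164 fell at day 14, and with library totals 566 and 1598. At day 16 these were 904 and 1175 against 519 and 1564, and over all callus 1182 and 1546 against 791 and 1880. The median log2 change of all loci then moved to -0.24 at day 14, against 0.10 with TMM, while GOBLET's change relative to that median was 3.79 and 3.77. No pairing by replicate number was seen, since 4 of 18 same-numbered pairs correlated over 0.1 (-0.26 to 0.21). The best match had the same number in 8 of 36 cases. With 3 libraries per group this check cannot exclude that same-numbered libraries shared a culture or batch. With a replicate block GOBLET's edgeR adjusted p was 0.0217, 0.00303, 0.0130 and 0.00350 at days 12, 14, 16 and over all callus. The loci called with this block numbered 2120, 1956, 1949 and 2606, against 2256, 2107, 2079 and 2728.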

Other observations

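The 21-nt share of GOBLET reads was lower in the libraries of day 12 than in those of days 14 and 16. The pattern was noticed after the values were seen. Of the GOBLET reads, 60%, 40% and 53.6% were 21 nt in the day 12 libraries. Those of day 14 had 72%, 75.9% and 62.5%, and those of day 16 had 75%, 92.3% and 82.4%. Every library of days 14 and 16 lay above every library of day 12, while days 14 and 16 overlapped. The share averaged 76.7% ± 10.03 at days 14 and 16 (SD, n = 6) and 51.2% ± 10.2 at day 12 (SD, n = 3), and the exact permutation test over libraries (two-sided) gave p = 0.0119, the smallest that this split can give. As the split was chosen on these values, the p is a description. Without replicate 2 of day 12 the difference was 19.9 percentage points, against 25.5 with all libraries, and p was 0.0714, where the smallest possible was 0.0357. The shares rest on 4 to 29 reads per library. Among the 5095 loci with at least 4 reads in every callus library, days 14 and 16 lay above day 12 without overlap at 0.805% and below it at 1.16%. With no difference between days, this split separates a locus in a given direction with a probability of at most 0.0119. Such separations were no more frequent than that among the 5095 loci. Equal shares, which few reads per library make likely, lower that probability by an unknown amount, so this comparison cannot decide the question. GOBLET's pattern alone does not show a change of its length mix. Among the 291 of the 5095 loci with at least 50% of callus reads at 21 nt, 6 (2.06%) lay above day 12 and 3 (1.03%) below it. The first share is over that probability and the second under it, and both rest on few loci. The 21-nt share of all gene reads was 40.6% to 50.6% at day 12 and 41.5% to 51.6% at days 14 and 16.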
